A study of Mus musculus with 8 samples.

Results

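Voltage-gated and potassium channel genes were followed in RNA of the embryonic mouse outflow tract (OFT), the vessel-like segment that joins the heart tube to the great arteries. The members were the listed genes whose symbols begin with Kcn, Cacn, Scn and a digit, or Hcn and a digit, and 79 of the 14608 genes in the table met that rule. In the mouse annotation 143 genes carry such a symbol, 138 of them protein-coding, so the 79 are those that passed a filter on low values and not the whole family. The table holds 8 RNA-seq libraries of OFT at embryonic day 11.5, 4 labelled control and 4 labelled Mib1V943F/+ Gata6STOP/+. The mutant-labelled embryos carried 1 missense allele of *Mib1*, the ubiquitin ligase that activates Notch ligands, and 1 null allele of *Gata6*, a cardiac transcription factor. Both alleles are present in every cell, since no Cre or tissue promoter is named, and the controls are titled WT, for wild type, with the genotype given as Control. Each library was made from pooled OFT, with 3 individuals per pool in the sample labels and another pool size in the study's methods, so the number of embryos behind a library is not known. The methods also give 3 pools per genotype where the table holds 4 libraries per group, so the 4 libraries may not all be independent pools, and n = 4 below counts libraries. No group with only 1 of the 2 alleles was analysed here, and the share of either allele in a difference cannot be told apart.

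Ion channels set the electrical behaviour of heart muscle. Sodium channels carry the fast upstroke of the action potential, calcium channels admit the calcium that triggers contraction, potassium channels restore and hold the resting potential, and hyperpolarization-activated channels drive pacemaking. Most are assembled from a pore-forming subunit and auxiliary subunits that change its gating or its delivery to the membrane. At the stage sampled, the OFT wall holds a sleeve of myocardium around endocardium and cushion mesenchyme, and channels of muscle, vessel wall and nerve can all contribute RNA to it.

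The values are CPM, read counts scaled by TMM to a common library size, and whole reads could be recovered from them. Reads on listed genes numbered 28212669, 10669420, 24833953 and 25963535 for the controls, taken in the order of replicates 1 to 4 as everywhere below, and 21064242, 27194966, 30469165 and 26142501 for the mutant-labelled samples. A single read was worth 0.0948 CPM in control replicate 2, the shallowest library, and between 0.0325 and 0.0467 CPM in the others. Intervals at this depth cover counting error and the spread between these samples only, since nothing says whether pools shared litters. Mutant-labelled replicate 2 stood apart from the other libraries of its group. Its chi-square per gene against them ran from 30.8 to 33.7, where the pairs among the other 3 mutant-labelled libraries lay between 9.38 and 12.4. It was the highest or the lowest mutant-labelled library for 56 of the 79 channel genes (70.9%), against 72.5% of all genes. Control replicate 2 was the highest or lowest control library for 63 of the 79 (79.7%), against 61.7% of all genes.

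The mutated genes were looked at first, as a check of the labels. *Gata6* was at 236.5, 279, 271 and 261 CPM with the control label and 213, 284, 276.5 and 224 CPM with the mutant label. *Mib1* was at 138, 107, 109.9 and 132 CPM with the control label and 123.5, 137, 123 and 126 CPM with the mutant label. The groups overlapped for both genes, so RNA level does not separate them and each direction below rests on the labels. The paper reports quantitative PCR in which *Gata6* RNA was lower, as predicted, in mutants of this genotype. The groups are called control-labelled and mutant-labelled because their RNA levels of both genes overlapped here. A missense allele of *Mib1* need not change its RNA level. Whether reads from the null *Gata6* allele are among those counted is not given in the sources used here, and the table gives no reads by allele.

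Most channel genes were expressed at low levels. The median of their mean levels was 4.94 CPM, against 26.7 CPM over all genes, and 40 of the 79 had a mean under 5 CPM while 6 reached 50 CPM. At least 1 CPM was reached in all 8 libraries by 67 members. For 3 members (*Scn3b*, *Kcnip4* and *Kcnb2*, named after their values were seen) 1 CPM was reached in at least 3 libraries of 1 group only, which was the mutant-labelled group. *Scn3b* reached it in 0 control-labelled libraries, so its listing rested on the mutant-labelled group alone. Summed over the 79 genes, the level was 1528, 1462, 1494 and 1410 CPM with the control label and 1323, 1164, 1334 and 1408 CPM with the mutant label. All mutant-labelled sums lay below all control-labelled sums, narrowly for mutant-labelled replicate 4, and the mean share of CPM was 0.146% against 0.132%. The CPM of all genes totalled 1000652 in control-labelled replicate 4 and 995454 in mutant-labelled replicate 4. Taken as a share of that total, the order of this pair turns and the groups overlap.

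Levels were compared between genes per kilobase of the longest annotated transcript. On that scale the control-labelled libraries were led by *Cacna1h*, the pore of a T-type calcium channel that opens at low voltage, at 26.9 ± 1.90 CPM per kb (SD, n = 4). Next was *Kcnh2*, the pore of the rapid delayed rectifier that repolarizes heart muscle, at 26.0 ± 2.73 CPM per kb (SD, n = 4), and these 2 levels differed by less than their spread. *Kcne1*, the small subunit that slows the *Kcnq1* channel, stood at 16.5 ± 1.73 CPM per kb (SD, n = 4), and *Cacnb3*, a cytoplasmic calcium channel beta subunit, at 16.2 ± 1.77 CPM per kb (SD, n = 4). *Kcnj5* and *Kcnk3* followed at 13.5 and 13.2 CPM per kb. *Hcn4*, the main pacemaker channel of the heart, was at 4.42 CPM per kb.

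Of the 79 channel genes, 6 were lower in the mutant-labelled libraries past an adjusted p of 0.05 in the likelihood ratio test of edgeR with Benjamini-Hochberg adjustment, which is 7.59% of the members against 0.554% of all genes. The 5 described here are *Kcng2*, *Cacna2d2*, *Kcnj3*, *Kcnj11* and *Cacng6*, and 0 members were higher past it, against 0.178% of all genes. limma, the main test, placed 0 of the 79 past an adjusted p of 0.05 with Benjamini-Hochberg adjustment, and 0% of all genes, with a smallest adjusted p of 0.124. At an unadjusted p under 0.05 in limma, 11 members were lower (13.9%, against 6.62% of all genes) and 8 were higher (10.1%, against 5.45% of all genes). The quasi-likelihood test of edgeR gave 0 members after adjustment, against 0 of all 14608 genes. DESeq2 gave 6 members, against 194 of all 14608 genes, and 5 of the 6 were among those of the likelihood ratio test. The groups did not overlap for 10 lower members (12.7%, against 3.9% of all genes) and for 3 higher members (3.80%, against 3.2% of all genes). *Scn3b* is among the higher members in these counts although its listing rested on the mutant-labelled libraries, so the counts of higher members are not evidence of a difference. The median log2 fold change of the members was -0.04, against 0.00 over all genes, with 46 members below zero and 33 above. Fold changes are mutant-labelled minus control-labelled on log2(CPM + 0.5), a scale that understates the change of genes near 1 CPM.

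**Figure D1:**
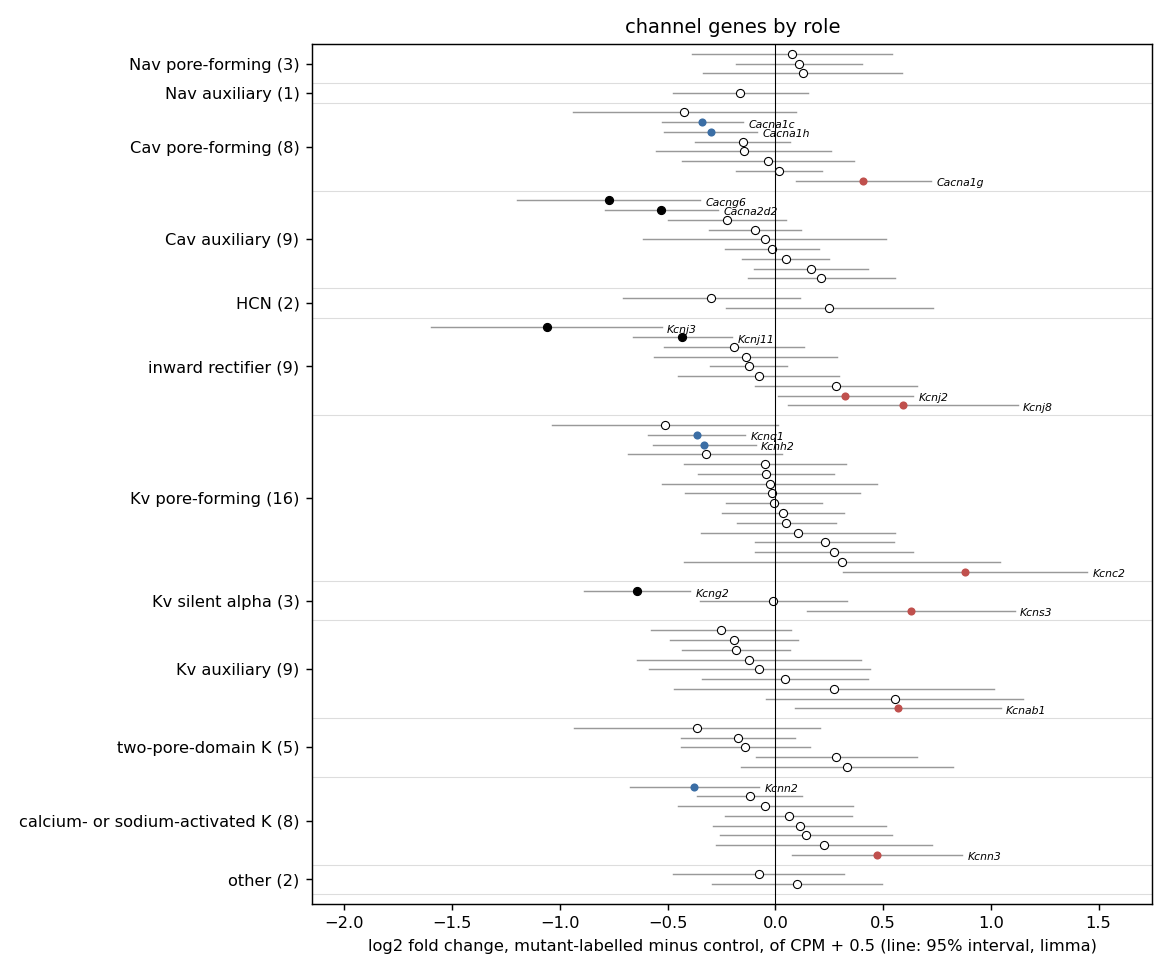
Log2 fold change of CPM + 0.5 on the x axis, mutant-labelled minus control-labelled, for the channel genes reported singly, grouped by role on the y axis with the number of genes in brackets; lines are 95% intervals from limma. Black points are genes past the likelihood ratio test, blue and red points are other genes with an unadjusted limma p under 0.05 that were lower or higher, and open points are the rest.

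In the figure fold changes run from -1.06 for *Kcnj3* to 0.88 for *Kcnc2*, and the 5 black points sit in 3 roles: auxiliary calcium channel subunits, inward rectifiers and silent subunits.

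Sodium channel beta subunits are single-span membrane proteins that tune gating and cell adhesion. *Scn3b*, one of them, was at 0.432, 0.379, 0.928 and 0.655 CPM with the control label and 1.12, 2.10, 1.14 and 1.37 CPM with the mutant label. Every mutant-labelled library lay above every control-labelled library, at levels that rest on as few as 4 reads. *Scn3b* reached 1 CPM in 0 control-labelled and 4 mutant-labelled libraries, so it could be listed only by being higher there. It stays in the counts of 8 and 3 higher members but is left out of the figures, and no test of it alone is given.

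Calcium channel pores comprised L-type, T-type and neuronal kinds, 8 genes in all. Of these, 2 were lower and 1 was higher at an unadjusted p under 0.05 in limma, against 6.62% and 5.45% of all genes. *Cacna1c*, the L-type pore that couples excitation to contraction, was at 166, 145, 163 and 141 CPM with the control label and 118, 105.9, 128 and 135 CPM with the mutant label. All control-labelled libraries were above all mutant-labelled ones. Its means were 154 ± 12.6 and 122 ± 12.6 CPM (SD, n = 4 each), which gave a log2 fold change of -0.34 (95% interval -0.53 to -0.15), with Benjamini-Hochberg adjusted p-values of 0.234 (limma), 0.0573 (likelihood ratio test, edgeR) and 0.0270 (DESeq2). *Cacna1h* was at 211, 240.4, 228 and 206.5 CPM with the control label and 181, 145, 203 and 195 CPM with the mutant label. The groups did not overlap, and mutant-labelled replicate 2 was the lowest. The log2 fold change was -0.30 (adjusted p = 0.308 in limma with Benjamini-Hochberg adjustment), and -0.20 without mutant-labelled replicate 2.

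*Cacna1g*, the other T-type pore listed, went the other way. It was at 18.2, 15.9, 22.8 and 21.5 CPM with the control label and 34.4, 22.4, 24.5 and 23.9 CPM with the mutant label. Mutant-labelled replicate 1 was high, and mutant-labelled replicate 2 lay just under control-labelled replicate 3, so the groups overlapped. The log2 fold change was 0.41 (adjusted p = 0.331 in limma with Benjamini-Hochberg adjustment). Whether the T-type pair differ from each other in response was not tested. *Cacna1d*, an L-type pore of sinoatrial and neuroendocrine cells, was at 36.1 ± 3.74 and 36.5 ± 2.69 CPM (SD, n = 4 each), and its direction turned when single libraries were left out.

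The auxiliary calcium channel subunits numbered 9, and 2 of them were among the 6 genes of the likelihood ratio test, against 0.554% of all genes lower in it. At an unadjusted p under 0.05 in limma 2 were lower and 0 were higher, against 6.62% and 5.45% of all genes. *Cacna2d2*, an alpha2-delta subunit that raises the number of channels at the membrane (ENSMUSG00000010066, chromosome 9, 107399612 to 107529343, GRCm38), was at 39.2, 32.3, 35.2 and 44.8 CPM with the control label and 25.9, 21.3, 26.7 and 30.5 CPM with the mutant label. The groups did not overlap, with the highest mutant-labelled library, replicate 4, under the lowest control-labelled one. The means were 37.9 ± 5.40 and 26.1 ± 3.78 CPM (SD, n = 4 each), which gave a log2 fold change of -0.53 (95% interval -0.79 to -0.27), with Benjamini-Hochberg adjusted p-values of 0.206 (limma) and 0.0123 (likelihood ratio test, edgeR). *Cacng6*, a gamma subunit related to that of the skeletal muscle calcium channel (ENSMUSG00000078815, chromosome 7, 3424195 to 3435667), was at 12.8, 10.1, 9.84 and 7.36 CPM with the control label and 7.24, 4.08, 4.68 and 6.78 CPM with the mutant label. The groups almost touched at control-labelled replicate 4 and mutant-labelled replicate 1. The log2 fold change was -0.77 (95% interval -1.20 to -0.35), with Benjamini-Hochberg adjusted p-values of 0.234 (limma) and 0.0438 (likelihood ratio test, edgeR). *Cacna2d1*, the alpha2-delta subunit of heart and skeletal muscle, had a log2 fold change of -0.02, which was 0.005 with equal-total scaling. *Cacnb2*, the main cardiac beta subunit, and *Cacnb3* had log2 fold changes of -0.09 and 0.05, and the sign of *Cacnb3* turned without control-labelled replicate 1.

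**Figure D2:**
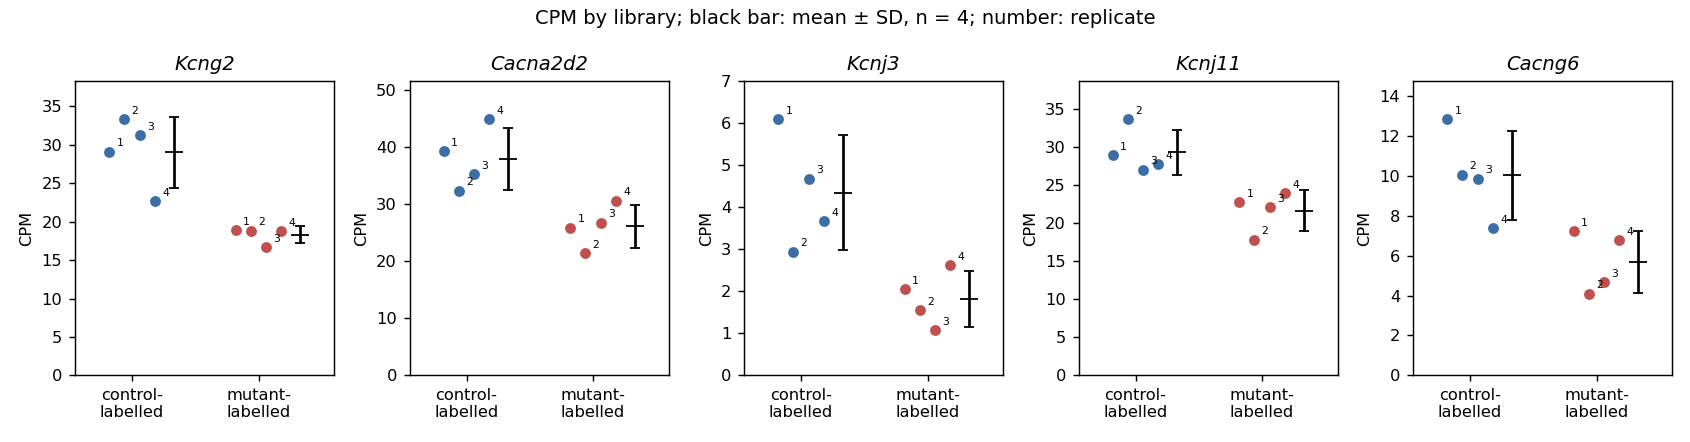
CPM (y axis) of 5 genes past the likelihood ratio test in each library, numbered by replicate, for the control-labelled and the mutant-labelled group (x axis), with the mean ± SD of 4 libraries in black. No mutant-labelled library reaches the lowest control-labelled library in any panel, and the gap is narrowest for *Cacng6* (7.36 against 7.24 CPM).

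Inward rectifiers let potassium in more easily than out and hold the resting potential. Of 9 listed, 2 were lower and 2 were higher at an unadjusted p under 0.05 in limma, against 6.62% and 5.45% of all genes. *Kcnj3*, which pairs with *Kcnj5* in the G protein-gated channel that slows the atria and pacemaker under vagal drive (ENSMUSG00000026824, chromosome 2, 55435970 to 55598145), was at 6.09, 2.94, 4.68 and 3.66 CPM with the control label and 2.05, 1.55, 1.07 and 2.63 CPM with the mutant label. The lowest control-labelled library, replicate 2, lay just above the highest mutant-labelled library, replicate 4. The means were 4.34 ± 1.36 and 1.82 ± 0.668 CPM (SD, n = 4 each), which gave a log2 fold change of -1.06 (95% interval -1.60 to -0.53), with Benjamini-Hochberg adjusted p-values of 0.212 (limma) and 0.0145 (likelihood ratio test, edgeR). Its partner *Kcnj5* was at 63.5 ± 5.51 and 58.2 ± 4.75 CPM (SD, n = 4 each), which gave a log2 fold change of -0.12 with overlapping groups, or -0.07 without control-labelled replicate 1. An RNA on the opposite strand shares 31.1% of the exon bases of *Kcnj3*, and whether the counting used strand is not given in the sources used here.

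*Kcnj11*, the pore of the ATP-sensitive channel that links metabolism to excitability (ENSMUSG00000096146, chromosome 7, 46093953 to 46100764), was at 28.9, 33.7, 27.1 and 27.8 CPM with the control label and 22.8, 17.8, 22.1 and 23.9 CPM with the mutant label. Without overlap between groups, mutant-labelled replicate 2 was the lowest of all. The log2 fold change was -0.43 (95% interval -0.66 to -0.20), with Benjamini-Hochberg adjusted p-values of 0.228 (limma) and 0.0365 (likelihood ratio test, edgeR). *Kcnj8*, the ATP-sensitive pore known from mural cells of vessels, was at 1.33, 1.23, 2.30 and 1.93 CPM with the control label and 2.99, 4.38, 1.82 and 2.32 CPM with the mutant label. Its groups overlapped, and with mutant-labelled replicate 2 left out the log2 fold change moved from 0.59 to 0.40 and the unadjusted p in limma was 0.109. *Kcnj2*, the main pore of the cardiac resting current, was at 24.6, 23.3, 26.6 and 32.5 CPM with the control label and 25.5, 42.7, 34.2 and 33.2 CPM with the mutant label. Mutant-labelled replicate 2 was again the highest, and without it the log2 fold change moved from 0.32 to 0.21 (unadjusted p = 0.134 in limma). *Kcnj12*, a second pore of the resting current, was at 4.67 ± 0.719 and 4.02 ± 0.582 CPM (SD, n = 4 each).

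Voltage-gated potassium pores were the largest role, with 17 genes. At an unadjusted p under 0.05 in limma 2 were lower and 1 was higher, against 6.62% and 5.45% of all genes. *Kcnq1*, the pore of the slow delayed rectifier, was at 12.4, 13.3, 14.1 and 12.8 CPM with the control label and 9.15, 11.1, 11.02 and 9.21 CPM with the mutant label. All mutant-labelled libraries were under all control-labelled ones. The log2 fold change was -0.37 (95% interval -0.59 to -0.14, adjusted p = 0.258 in limma with Benjamini-Hochberg adjustment). *Kcnq1ot1*, a listed RNA on the opposite strand at 85.4 and 82.4 CPM, covers 2.96% of the exon bases of *Kcnq1*, so some reads may not be separable. *Kcnh2* was at 110.2, 116.5, 119 and 93.3 CPM with the control label and 87.7, 69.98, 98.6 and 93.8 CPM with the mutant label. Control-labelled replicate 4 lay among the mutant-labelled libraries, so the groups overlapped, with a log2 fold change of -0.33 (adjusted p = 0.310 in limma with Benjamini-Hochberg adjustment). *Kcnc2*, a fast-activating pore known from rapidly firing neurons, was at 1.48, 0.759, 2.62 and 1.23 CPM with the control label and 2.61, 4.27, 2.80 and 2.67 CPM with the mutant label. Control-labelled replicate 3 matched the lowest mutant-labelled library, and the log2 fold change of 0.88 (adjusted p = 0.270 in limma with Benjamini-Hochberg adjustment) was 0.74 without mutant-labelled replicate 2.

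Pores of the transient outward and atrial currents did not pass limma before adjustment. *Kcnd2* and *Kcnd3*, which carry the transient outward current, had log2 fold changes of -0.51 (95% interval -1.03 to 0.01) and 0.27 (95% interval -0.10 to 0.64). *Kcna5*, the ultrarapid pore of atrial muscle, had a log2 fold change of 0.23. Each depended on single libraries: *Kcnd2* was -0.33 without control-labelled replicate 1, *Kcnd3* 0.12 without control-labelled replicate 2, and *Kcna5* 0.14 without control-labelled replicate 1 and 0.13 without mutant-labelled replicate 2.

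Silent alpha subunits form no channel alone and alter the gating of the pores they join. *Kcng2*, one of them (ENSMUSG00000059852, chromosome 18, 80294546 to 80364254), was at 29.1, 33.3, 31.2 and 22.6 CPM with the control label and 18.9, 18.8, 16.6 and 18.7 CPM with the mutant label. The mutant-labelled libraries lay close together and all below control-labelled replicate 4, itself the lowest control. The means were 29.1 ± 4.62 and 18.3 ± 1.09 CPM (SD, n = 4 each), which gave a log2 fold change of -0.64 (95% interval -0.89 to -0.39), with Benjamini-Hochberg adjusted p-values of 0.124 (limma) and 0.000262 (likelihood ratio test, edgeR). It was the only one of the genes called that stayed past the threshold of that test in 8 of 8 fits with 1 library left out. *Kcng2* lies on chromosome 18, as *Mib1*, *Gata6* and the lower member *Kcnn2* do, but far from them. *Mib1* begins at 10725548, *Gata6* at 11052064 and *Kcnn2* at 45268860, and an effect of position was not tested. A transcript on the opposite strand that is also listed shares 9.1% of the exon bases of *Kcng2*. *Kcns3*, another silent subunit, was at 1.08 ± 0.202 and 1.997 ± 0.729 CPM (SD, n = 4 each) without overlap, and its log2 fold change of 0.63 was 0.45 without mutant-labelled replicate 2.

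Auxiliary subunits of the voltage-gated potassium channels gave 0 lower and 1 higher of 9 at an unadjusted p under 0.05 in limma, against 6.62% and 5.45% of all genes. *Kcnab1*, a cytoplasmic beta subunit that speeds inactivation, was at 4.94, 4.17, 6.41 and 5.47 CPM with the control label and 6.21, 13.3, 7.93 and 6.02 CPM with the mutant label. Mutant-labelled replicate 2 was far above the rest, and without it the log2 fold change moved from 0.57 to 0.33 (unadjusted p = 0.0609 in limma). *Kcne1* was at 52.3 ± 5.50 and 44.7 ± 11.5 CPM (SD, n = 4 each), with mutant-labelled replicate 2 the highest library of all at 60.1 CPM.

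Of 8 channels opened by calcium or sodium, or their subunits, 1 was lower and 1 was higher at an unadjusted p under 0.05 in limma, against 6.62% and 5.45% of all genes. *Kcnn2*, a small-conductance calcium-activated pore of atrial muscle and neurons, was at 9.40, 7.78, 8.35 and 8.09 CPM with the control label and 7.61, 4.97, 6.08 and 7.04 CPM with the mutant label. Its relative *Kcnn3* was at 3.46, 2.09, 4.28 and 3.66 CPM with the control label and 4.99, 4.30, 4.65 and 5.03 CPM with the mutant label. The groups did not overlap for either gene, with log2 fold changes of -0.38 and 0.47 in opposite directions, and the difference between the pair was not tested. *Kcnmb4*, a beta subunit of the large-conductance channel, shares 20.8% of its exon bases with *Kcnmb4os2* on the opposite strand, so their reads may not be separable. They had log2 fold changes of 0.06 and 0.10, which without 1 library ranged from 0.000 to 0.181 for *Kcnmb4* and from 0.019 to 0.184 for *Kcnmb4os2*.

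Leak and pacemaker channels did not pass limma before adjustment. *Kcnk3*, an acid-sensitive background channel, was at 53.7, 60.0, 49.2 and 38.7 CPM with the control label and 45.9, 19.6, 41.5 and 59.0 CPM with the mutant label. *Hcn4* was at 30.0, 28.6, 25.8 and 23.8 CPM with the control label and 27.3, 13.4, 22.2 and 27.9 CPM with the mutant label. Mutant-labelled replicate 2 was by far the lowest for both, and without it their log2 fold changes moved from -0.36 to -0.04 and from -0.30 to -0.07.

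**Figure D3:**
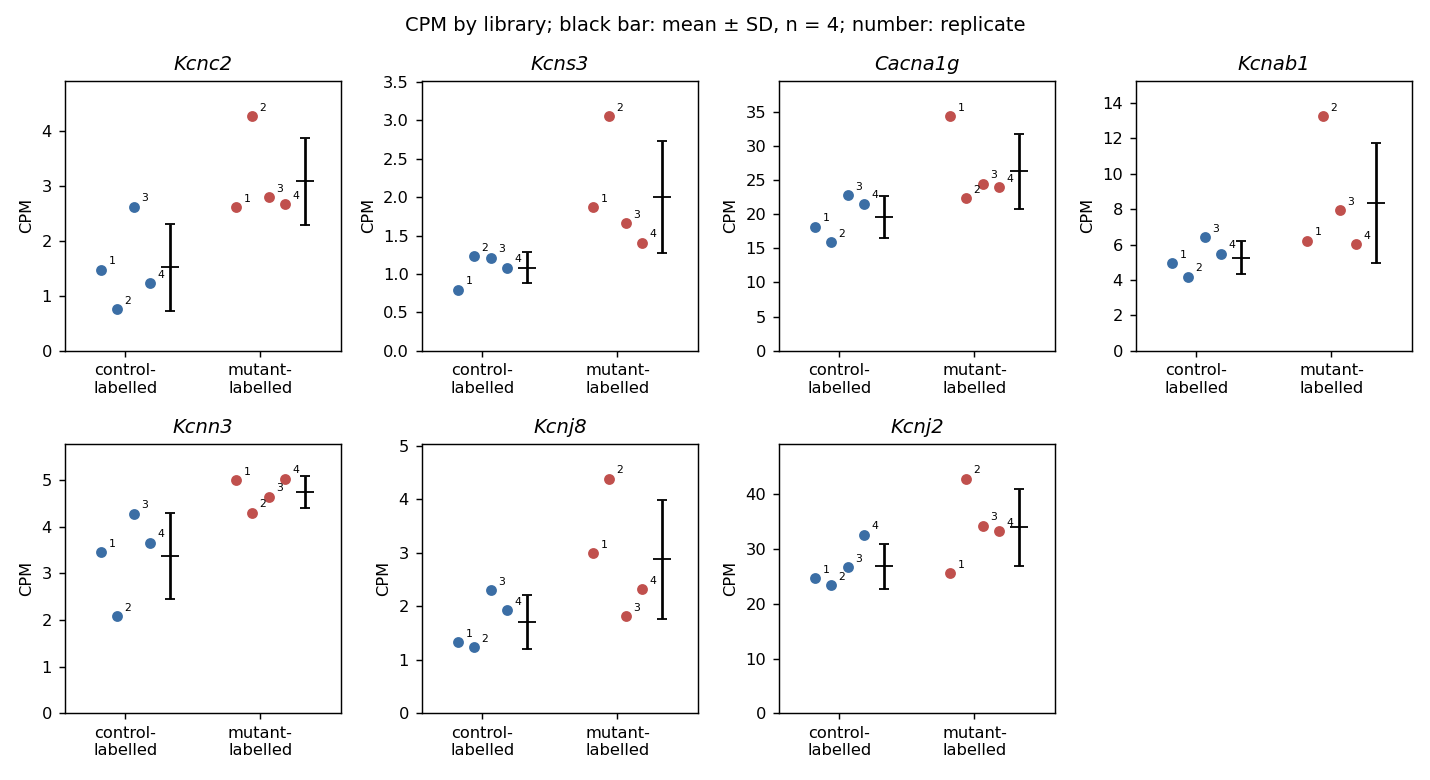
CPM (y axis) of 7 genes that were higher at an unadjusted p under 0.05 in limma, by library and group (x axis), numbered by replicate, with the mean ± SD of 4 libraries in black. Mutant-labelled replicate 2 is the highest point for *Kcnc2*, *Kcns3*, *Kcnab1*, *Kcnj8* and *Kcnj2*.

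Without mutant-labelled replicate 2, 14 channel genes were lower (against 5.46% of all genes in that fit) and 6 were higher (against 3.64%) at an unadjusted p under 0.05 in limma. These included all 11 genes that were lower with all libraries and, *Scn3b* aside, *Kcnn3*, *Cacna1g* and *Kcnc2* of those that were higher, and a difference between the directions was not tested. The log2 fold changes without it were -0.66 for *Kcng2*, -0.44 for *Cacna2d2*, -1.02 for *Kcnj3*, -0.64 for *Cacng6* and -0.34 for *Kcnj11*. For *Cacna1c*, *Kcnq1*, *Kcnh2* and *Kcnn2* they were -0.28, -0.41, -0.23 and -0.27, and for *Cacna1g* and *Kcnn3* 0.48 and 0.51. *Kcnn3* depended more on control-labelled replicate 2, its lowest library, without which the log2 fold change was 0.29. After adjustment the lower calls of the likelihood ratio test moved with single libraries. Without control-labelled replicate 1 or mutant-labelled replicate 3 only 1 gene remained, without control-labelled replicate 3 or mutant-labelled replicate 2 there were 2, and without mutant-labelled replicate 4 there were 7. The share of all genes called in the same fits is not given here. Whether these moves were particular to channel genes was therefore not tested. Of the 8 fits with 1 library left out, *Cacna2d2* passed in 5, *Kcnj3* in 4, *Cacng6* in 3 and *Kcnj11* in 2.

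**Figure D4:**
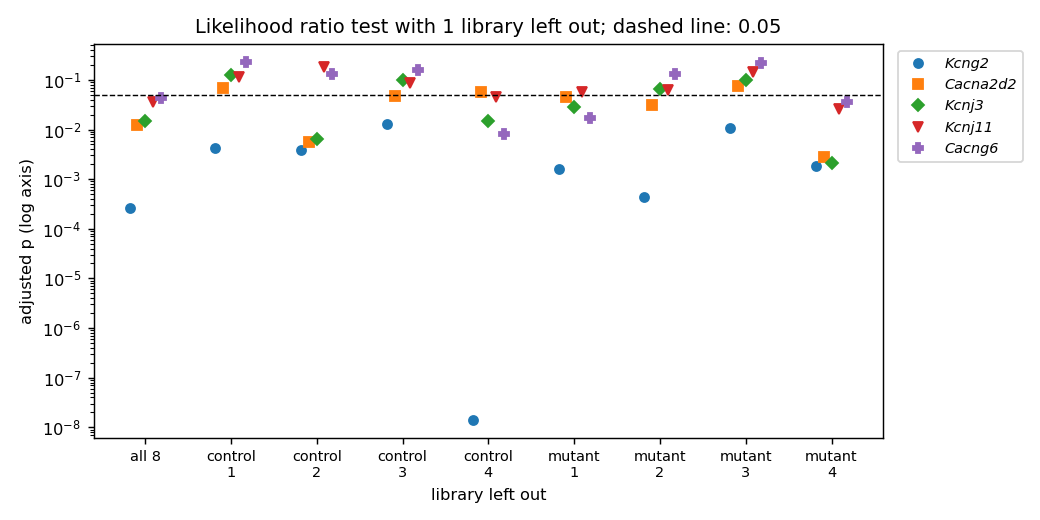
Adjusted p of the likelihood ratio test of edgeR with Benjamini-Hochberg adjustment (y axis, log scale) for 5 genes, with all 8 libraries and with each library left out (x axis). The dashed line is 0.05, and *Kcng2* is the only gene under it in every fit.

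Markers of cell types were read beside the channels, from lists of genes typical of each cell type. The lists were made with earlier results of these data known, so their counts are not an independent test. All 16 cardiomyocyte markers were listed, and 15 of them were lower at an unadjusted p under 0.05 in limma (against 6.62% of all genes), *Myl7* being the exception. In the likelihood ratio test of edgeR 8 of the 16 were lower after Benjamini-Hochberg adjustment (against 0.554% of all genes). Their summed level was 36321, 34601, 34670 and 30904 CPM with the control label and 26649, 24690, 26141 and 28831 CPM with the mutant label, without overlap, and *Myh7*, the most abundant, went from a mean of 10362 to 7915 CPM. The heart and vessel channel subunits described here were read at the same unadjusted threshold in limma. Those lower were *Cacna1c*, *Cacna1h*, *Cacna2d2*, *Kcnj3*, *Kcnj11*, *Kcnh2*, *Kcnq1*, *Kcng2* and *Kcnn2*. *Scn3b* aside, those higher were *Cacna1g*, *Kcnj2* and *Kcnj8*. Of these *Kcnj2* and *Kcnj8* did not pass without mutant-labelled replicate 2. The other such subunits passed in neither direction, *Cacna1d* and *Cacna2d1* being near zero, and the part of cardiomyocytes in those values was not tested. In bulk tissue fewer cells of a type and less RNA per cell cannot be told apart.

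Of 14 neuronal markers 8 were listed, with sums of 78.1 ± 5.26 and 85.2 ± 5.89 CPM (SD, n = 4 each), led by *Tubb3* at 27.8 and 26.6 CPM, while *Prph*, *Syt1*, *Dcx*, *Ina* and *Stmn3* were among those not listed. The median log2 fold change of these 8 was 0.02, with 5 above zero and 3 below (*Tubb3* -0.08, *Nefl* -0.12 and *Nefm* -0.17). Of them *Elavl4* and *Stmn2* were higher at an unadjusted p under 0.05 in limma, and the part of neurons in the channel values was not tested. *Stmn2*, a tubulin-binding protein of growing axons, was also higher past the likelihood ratio test of edgeR after Benjamini-Hochberg adjustment. Of 8 neural crest and glial markers 3 were listed, led by *Erbb3*, with sums of 79.9 ± 8.88 and 69.6 ± 14.3 CPM (SD, n = 4 each). Smooth muscle markers summed to 2654 ± 205 and 2628 ± 216 CPM, led by *Acta2*, and endothelial and endocardial markers to 1049 ± 90.0 and 1015 ± 45.9 CPM, led by *Cdh5* (SD, n = 4 each). In limma *Myh11* was higher and *Smtn* and *Myocd* were lower among the first, and *Emcn* and *Npr3* were lower among the second, at an unadjusted p under 0.05. Cushion mesenchyme markers, led by *Col3a1*, summed to 6508 ± 204 and 6850 ± 827 CPM, and macrophage markers, led by *Csf1r*, to 51.9 ± 5.02 and 54.9 ± 9.998 CPM (SD, n = 4 each). Epicardial markers, led by *Upk3b*, summed to 377 ± 48.0 and 413 ± 101.3 CPM (SD, n = 4 each), with mutant-labelled replicate 2 the highest library at 559 CPM. Erythroid markers, led by *Hbb-y*, summed to 2973 ± 814 and 3787 ± 1851 CPM (SD, n = 4 each), ranging from 1840 to 3752 CPM with the control label and from 1544 to 5761 CPM with the mutant label. All 10 erythroid markers had log2 fold changes above zero, with overlapping sums, and mutant-labelled replicate 2 was the highest.

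**Figure D5:**
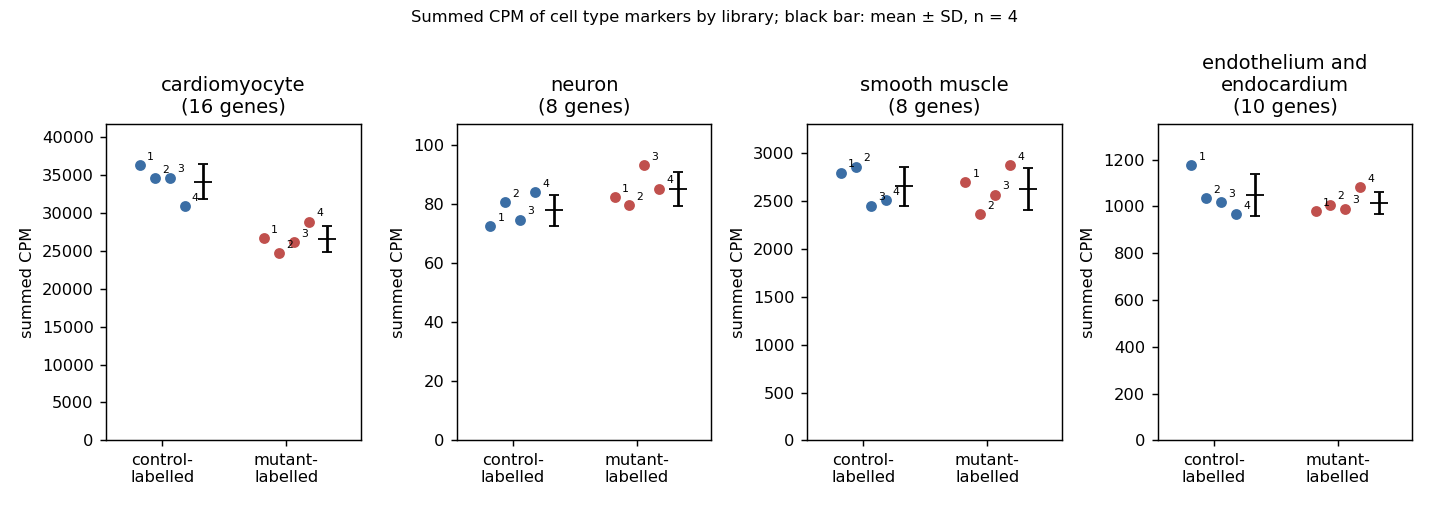
Summed CPM (y axis) of the listed markers of cardiomyocytes, neurons, smooth muscle, and endothelium and endocardium in each library, by group (x axis), numbered by replicate, with the mean ± SD of 4 libraries in black. The cardiomyocyte sums are 30904 CPM or more in the control-labelled and 28831 CPM or less in the mutant-labelled libraries, and the other panels overlap.

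Partner genes encode proteins that anchor, modulate or share currents with these channels, and 63 of 69 such genes were listed. The list was made with earlier results of these data known, so its counts are not an independent test. In limma 19 were lower (against 6.62% of all genes) and 5 were higher (against 5.45%) at an unadjusted p under 0.05, and 0 passed after adjustment. In the likelihood ratio test of edgeR 2 were lower after Benjamini-Hochberg adjustment, against 0.554% of all genes. *Rrad*, a small GTPase that restrains L-type channels, was at 137, 156, 144 and 133.5 CPM with the control label and 118, 104.5, 106 and 120.2 CPM with the mutant label. Every mutant-labelled library was below every control-labelled one, with a log2 fold change of -0.34 and Benjamini-Hochberg adjusted p-values of 0.195 (limma) and 0.0176 (likelihood ratio test, edgeR). In the latter it passed in 5 of 8 fits with 1 library left out. *Abcc9*, the sulfonylurea receptor that completes the ATP-sensitive channel, was at 60.5 ± 14.3 and 37.9 ± 10.1 CPM (SD, n = 4 each) and is named here after its values were seen. Its groups overlapped, with Benjamini-Hochberg adjusted p-values of 0.254 (limma), 0.0578 (likelihood ratio test, edgeR) and 0.186 (DESeq2).

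Since *Gata6* binds GATA letters, these were searched in the 250 bases before each start of a gene, taken from the RefSeq promoter table of GRCm38.p6. The motifs were AGATAA and its relative TGATAA, both also with G in place of the last A, on both strands, and 26.5% of all starts held one. The table matched 55 of the 79 members, and 17 of their 81 starts (21%) held a motif. Of the 6 genes of the likelihood ratio test 3 were matched and 0 held one. For genes lower at an unadjusted p under 0.05 in limma, 2 of 7 starts (28.6%) held one, both of *Cacna1c*. For those higher it was 3 of 12 starts (25%), and both shares are near the 26.5% of all starts. The windows below are shown because their genes are the ones that differed at an unadjusted p under 0.05 in limma and held a motif; *Kcnab1* did too. The *Cacna1c* window shown precedes an alternative start inside the gene, and the window before its outermost start, not shown, also held a motif. Capitals mark the motif, and each is written 5′ to 3′ on the strand of its gene. The *Kcnj2* and *Kcnj8* windows lie before the annotated start of their genes. Overlap of the windows with other annotated exons was not checked. They come from chr6:118758034-118758093 (minus strand) for *Cacna1c*, chr11:111066107-111066163 (plus strand) for *Kcnj2* and chr6:142571758-142571817 (minus strand) for *Kcnj8*.
Cacna1c: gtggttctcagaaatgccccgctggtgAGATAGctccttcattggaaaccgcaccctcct
Kcnj2: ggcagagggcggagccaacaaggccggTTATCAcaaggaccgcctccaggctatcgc
Kcnj8: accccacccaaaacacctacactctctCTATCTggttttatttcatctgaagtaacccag
A match says only that these letters are present, and binding was not measured here.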

How the data were processed

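RNA-seq was made from pooled OFT with a directional poly(A) kit. Per the study's methods, the authors trimmed adapters with cutadapt, quantified with RSEM on GRCm38 and scaled by TMM in edgeR; the values they deposited are CPM. They state that genes at 1 CPM in at least 3 samples were kept, and the fewest found here was 4. Whole reads were recovered for 100% of values (tolerance 0.05 of a read).

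Groups follow the sample labels. The main test was limma 3.58.1 (trend) on log2(CPM + 0.5) in R 4.3.3, two-sided, with Benjamini-Hochberg adjustment over 14608 genes at 0.05. edgeR 4.0.16 and DESeq2 1.42.0 were run on recovered reads, where the likelihood ratio test called 107 genes, DESeq2 194 and the quasi-likelihood test 0 (1708 unadjusted, limma 1763). Alternatives were other pseudocounts (0.1, 1), a mean of at least 5 CPM, other scalings, a GC trend, the replicate block and leaving out each library. Annotation was GENCODE M21 (GRCm38). Scripts were tested on simulated data.

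Members and lists were chosen with earlier results of these data known. Named genes were typed heart and vessel subunits (27 of 32 listed; *Scn4b*, *Hcn2*, *Kcnip2* and *Kcnma1* were among those not analysed here), members past either test or an unadjusted limma p under 0.05, and the highest member per kb in each role. Some genes of these lists are counted but not reported singly here.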

Additional observations from a re-analysis of the deposited data

Results flagged for a closer look

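In 2 of 66 groups of 4 libraries, 1 library lay far from the other 3 of its group, and chance gives that in about 1 in 20 groups. *Kcnc2* was at 4.27 CPM in mutant-labelled replicate 2, above the others of its group. *Kcng2* was at 16.6 CPM in mutant-labelled replicate 3, below the others. Whether these reflect the pools or the libraries was not tested.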

How the results depend on the processing

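The count of lower channel genes at an unadjusted p, 11 in limma, stayed between 10 and 14 under all alternatives, those without 1 library included. The count of higher ones, 8, was 3 when genes averaging under 5 CPM were dropped and ranged from 4 (without control-labelled replicate 2) to 11 without 1 library. Past adjustment, limma gave 0 channel genes, and the likelihood ratio test and DESeq2 gave 6 each. Leaving out 1 library, an alternative of that test chosen after seeing the data, gave between 1 and 7. Partner genes that were higher, 5, became 3 with the GC trend removed and ranged from 2 to 7 without 1 library. Lower ones ranged from 13 to 20. Of all genes, 6.62% were lower and 5.45% higher at an unadjusted p in limma. Without mutant-labelled replicate 2 these shares were 5.46% and 3.64%. For most other fits, the replicate block included, they are not given here. Whether the counts moved or held in a way particular to channel or partner genes was therefore not tested.

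Over all genes, samples of the same replicate number did not deviate together (r = 0.03, -0.19, 0.03 and -0.05). The labels do not say what a shared number means, and whether it stands for a shared litter or batch was not tested. With the replicate block 12 channel genes were lower, 7 higher and 0 past adjustment, and 2 partner genes were higher.

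With the GC trend removed the log2 fold change moved from -0.33 to -0.20 for *Kcnh2*, from -0.30 to -0.18 for *Cacna1h* and from 0.32 to 0.21 for *Kcnj2*. Among genes nearer zero it moved from -0.09 to -0.23 for *Cacnb2*, 0.05 to 0.17 for *Cacnb3*, -0.02 to -0.13 for *Cacna2d1* and 0.10 to 0.27 for *Kcnmb4os2*. *Cacnb2* was -0.03 without control-labelled replicate 1. Signs turned only for genes that no test called. *Cacna2d1* became 0.005 with equal-total scaling, and *Kcnmb4* -0.010 with the GC trend removed. Without 1 library the log2 fold change ranged from -0.058 to 0.070 for *Cacna1d*, -0.080 to 0.075 for *Cacna2d1*, and -0.007 to 0.105 for *Cacnb3*. The cause was not tested. Over the named genes 9 values turned sign, 13 passed a threshold that limma did not, and 556 did neither. Scaling moved the median of all genes by at most 0.02 on the log2 scale. Depth limits the low genes: *Scn3b* rests on as few as 4 reads in a library.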
